A study of Mus musculus with 10 samples.

Results

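The S100 genes encode small calcium-binding proteins, and 10 of them were examined in mouse mammary tumors: S100a1, S100a4, S100a6, S100a8, S100a9, S100a10, S100a11, S100a13, S100a14 and S100a16. The genes were chosen by name, with earlier results of these data known. A gene was counted where at least 1 probe set of the array was annotated to that gene alone, and its main probe set was the one with the highest mean signal over the 10 arrays. By this rule 9 of the 10 genes, with 13 probe sets, were measured among 18193 genes in all. The only probe set of S100a11 was also annotated to a pseudogene and a predicted gene, so its values are given but not counted.

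RNA came from whole spontaneous mammary tumors of female FVB/N-Tg(MMTVneu) mice, called Tg-neu. In these mice the mouse mammary tumor virus promoter drives the neu proto-oncogene mainly in mammary epithelium. Lov-treated mice (n = 5 tumors) received lovastatin, an inhibitor of cholesterol synthesis, at 10 mg/kg by intraperitoneal injection 3 times a week for 6 weeks from the onset of the first tumor. Vhcl-treated mice (n = 5 tumors) received ethanol, the solvent, on the same schedule. Each tumor was hybridized to 1 Affymetrix MG430 2.0 array, the age of the mice is not given in the sources used here, and the labels do not say whether the tumors of a group came from separate mice, so p-values measure the spread between these tumors only.

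S100 proteins form dimers that change shape when they bind calcium and then attach to partner proteins. Inside cells they act on the cytoskeleton, membranes and enzymes, and several are also released. S100A8 and S100A9 pair as calprotectin, an abundant protein of neutrophils and monocytes that withholds metal ions from microbes and acts on the receptors TLR4 and RAGE, and both can also be induced in stressed epithelium. S100A14 and S100A16 are found mainly in epithelial cells, while S100A6, S100A10, S100A11 and S100A13 occur in many cell types. S100A4 is known for mesenchymal and migrating cells, and S100A1 for heart and skeletal muscle and for neural tissue.

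All 10 genes lie on chromosome 3. In the RefSeq order S100a1, S100a13, S100a14, S100a16, S100a3, S100a2, S100a4, S100a5, S100a6, S100a7a, S100a8 and S100a9 follow one another, and S100a11 and S100a10 lie apart from them, with 56 protein-coding genes between S100a9 and S100a11. RefSeq promoter windows (GRCm38.p6, 250 bases before to 50 bases after the start) were found for 8 of the 10 genes, 9 windows in all, with none for S100a10 and S100a14. The windows of S100a8 (chr3:90668821-90669120, plus strand) and S100a9 (chr3:90695672-90695971, minus strand) are shown because the calprotectin genes carried the lower values described below. That of S100a13 (chr3:90514185-90514484, plus strand) is shown because it overlaps the window of S100a1 (chr3:90514281-90514580), which is read from the minus strand. Capitals mark a C/EBP motif in S100a9 and, in S100a13, the 204 bases shared with the S100a1 window.
S100a8: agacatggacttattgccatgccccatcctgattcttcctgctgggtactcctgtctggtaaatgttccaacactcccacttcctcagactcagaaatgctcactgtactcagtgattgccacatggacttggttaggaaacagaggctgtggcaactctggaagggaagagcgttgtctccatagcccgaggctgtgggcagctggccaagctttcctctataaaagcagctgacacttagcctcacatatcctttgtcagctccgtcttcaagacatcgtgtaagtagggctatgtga
S100a9: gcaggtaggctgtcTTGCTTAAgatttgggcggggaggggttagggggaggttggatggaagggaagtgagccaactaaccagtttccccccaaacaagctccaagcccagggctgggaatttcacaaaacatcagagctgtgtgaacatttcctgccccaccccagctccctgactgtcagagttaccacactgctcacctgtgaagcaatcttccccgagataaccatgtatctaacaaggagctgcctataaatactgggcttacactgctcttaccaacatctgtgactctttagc
S100a13: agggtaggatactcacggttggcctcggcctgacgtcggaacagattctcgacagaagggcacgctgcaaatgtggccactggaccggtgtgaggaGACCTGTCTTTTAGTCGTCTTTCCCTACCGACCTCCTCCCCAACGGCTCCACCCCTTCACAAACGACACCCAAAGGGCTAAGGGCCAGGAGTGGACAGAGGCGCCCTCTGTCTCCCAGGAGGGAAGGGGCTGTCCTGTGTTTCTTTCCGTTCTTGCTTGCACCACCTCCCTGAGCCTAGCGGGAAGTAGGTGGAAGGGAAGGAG
Motifs of 3 kinds were searched on both strands. The C/EBP motif TTGCNNAA stood in 10.8% of 32851 RefSeq windows and in 1 of the 9 S100 windows, that of S100a9, where TTGCTTAA begins 236 bases before the start. The STAT motif TTCNNNGAA stood in 8.3% of all windows and in 0 of the 9. The hypoxia motif ACGTG stood in 19.6% of all windows and in 2 of the 9, those of S100a6 and S100a11. These are matches of letters only.

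Across all probe sets the groups differed little relative to the spread between tumors. In limma's test with Benjamini-Hochberg adjustment, 0 of 45037 probe sets (0%) passed a false discovery rate of 0.05. The lowest adjusted p was 0.370, and 2379 of the 45037 probe sets lay at an unadjusted p under 0.05 (limma). Members were therefore read at that unadjusted threshold, beside the share of all genes at it: 2.75% of genes were lower with Lov, 3.5% were higher, and in 0.693% the groups did not overlap. Some arrays stood apart by markers of neighboring tissue. Mean log2 signals of salivary gland markers were 5.10 to 7.01 in Lov-treated tumors, highest in A19, and 5.70 to 11.82 in Vhcl-treated tumors, highest in AB11 and next in A59 (8.47), while skeletal muscle markers were high in Lov A55 (7.74) and in Vhcl A54 (8.04) and A59 (8.0). Epcam, Krt8 and Krt18 were bright in every tumor, at 11.60 to 12.61 with Lov and 11.78 to 12.73 with Vhcl. All 16 measured epithelial markers had a mean signal above the median of all probe sets. They were not all bright in each tumor: Krt19 was at 4.67 to 4.95 with Lov and 4.27 to 8.24 with Vhcl.

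Of the 9 S100 genes, 2 were lower with Lov (S100a9 and S100a14), 0 were higher, and in 0 did the groups separate completely. The differences were negative for 5 genes and positive for 4, with a median of −0.05 on the log2 scale against 0.00 over all 18193 genes. Neither S100a9 nor S100a14 passed after adjustment over all probe sets, where both had an adjusted p of 0.932 (limma, Benjamini-Hochberg). Both genes are dim on the array, as are S100a8 and S100a4, since these 4 lay below the median signal of all probe sets and the other 5 above it.

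**Figure D1:**
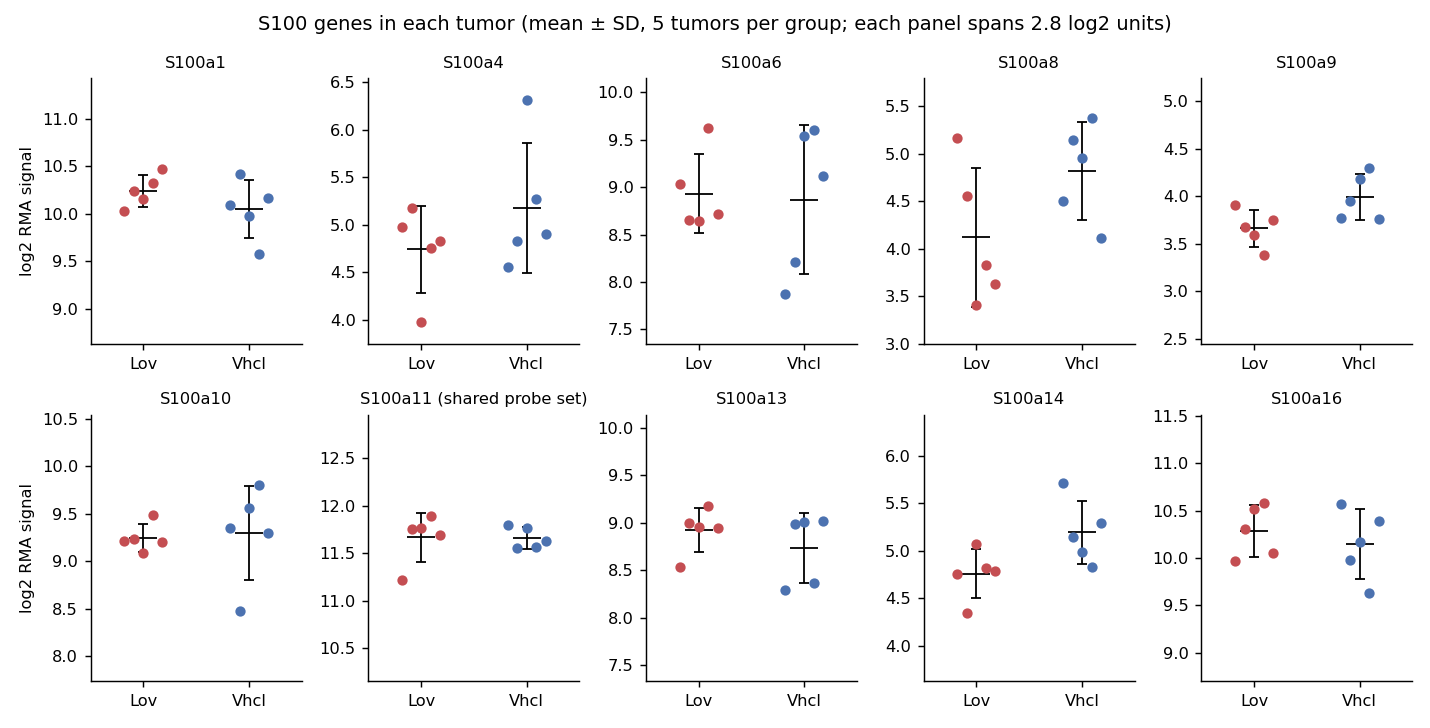
Log2 RMA signal (vertical axes, each spanning 2.8 log2 units) of the main probe set of each S100 gene, and of the shared S100a11 probe set, in Lov-treated (left, red) and Vhcl-treated tumors (right, blue). Points are tumors and bars are mean ± SD (n = 5 each); the groups overlap in every panel, with 4 points of the Lov group below the whole Vhcl group for S100a9 and S100a14 and 3 for S100a8.

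The granulocyte members S100a8 and S100a9 both had lower mean signals with Lov. S100a8 (1419394_s_at) had log2 signals of 5.17 (A19), 4.56 (A48), 3.41 (A50), 3.83 (A55) and 3.63 (AB10) in Lov-treated tumors, against 4.5 (A45), 5.15 (A49), 4.96 (A54), 5.38 (A59) and 4.11 (AB11) in Vhcl-treated tumors. Tumors are given in this order throughout. Thus 3 of the 5 Lov-treated tumors lay below every Vhcl-treated tumor, while A19 was higher than 4 of the 5. The means were 4.12 ± 0.73 with Lov and 4.82 ± 0.51 with Vhcl (SD, n = 5 each). The difference of −0.70 (95% interval −1.44 to 0.04) narrowly missed the threshold (limma unadjusted p = 0.0614, limma adjusted p = 0.954, exact permutation p = 0.119). The result depended on single tumors: left out 1 at a time, the difference ran from −0.96 to −0.52. It passed the threshold at −0.96 without Lov A19 (limma unadjusted p = 0.00666), −0.88 without Vhcl AB11 (limma unadjusted p = 0.0249) and −0.81 without Lov A48 (limma unadjusted p = 0.0491). It was −0.52 without Lov A50, −0.56 without Vhcl A59 and −0.58 without Lov AB10 (limma unadjusted p 0.138 to 0.153). Without both Lov A19 and Vhcl AB11 it was −1.14 (limma unadjusted p = 0.00146). Lov A19 had the highest S100a8 signal of its group and Vhcl AB11 the lowest of its own, so leaving both out was bound to widen the difference. Without these and Vhcl A59, the 3 tumors of highest salivary marker signal, the difference was −1.01 (limma unadjusted p = 0.00454), a choice made after seeing the data. With a measure of RNA integrity in the fit (log2 signal of the 3′ beta-actin probe set less that of the 5′ one), chosen after seeing the data, it was −0.46 (limma unadjusted p = 0.211). That measure was 0.67 to 1.07 in Lov-treated tumors and 0.80 to 1.35 in Vhcl-treated tumors.

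S100a9 (1448756_at), the calprotectin partner of S100a8, had signals of 3.91, 3.67, 3.59, 3.38 and 3.75 in Lov-treated tumors, against 3.77, 3.95, 4.18, 4.30 and 3.76 in the Vhcl-treated tumors. All Lov-treated tumors but A19 lay below every Vhcl-treated tumor, AB10 by only 0.01. The means were 3.66 ± 0.20 with Lov and 3.99 ± 0.24 with Vhcl (SD, n = 5 each). The difference was −0.33 (95% interval −0.63 to −0.04, limma unadjusted p = 0.0312). The exact permutation p was 0.0397, where the smallest possible p is 0.00794. The call was lost without Vhcl A54, Vhcl A59, Lov A50 or Lov A55 (limma unadjusted p 0.0611 to 0.0830). Without both A19 and AB11, again the highest Lov and the lowest Vhcl signal, the difference was −0.45 (limma unadjusted p = 0.0105). The call was also lost with the RNA integrity measure in the fit, at −0.17 (limma unadjusted p = 0.130). The S100a9 probe set was brighter than only 26.6% of all probe sets and S100a8 than 39.9%, and the robust multi-array average (RMA) values carry no detection calls, so how far these signals exceed background was not measured.

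Because whole tumors were assayed, fewer cells of a type and less RNA per cell cannot be told apart. Of 27 granulocyte markers 23 were measured, and 2 were lower with Lov and 0 higher, with a median difference of −0.07. Those 2 were Pglyrp1 (−2.05), a bactericidal granule protein, and Ltf (−2.41), which encodes lactoferrin and is also a milk protein of mammary epithelium. Pglyrp1 had signals of 5.67 to 7.76 in Lov-treated tumors, against 7.16 to 10.21 in Vhcl-treated tumors. Some granule proteins and receptors of neutrophils (Camp, Ngp, Mpo, Elane, Prtn3, Ctsg, Cxcr2 and Csf3r) had signals of 3.46 to 5.66 with Lov and 3.38 to 5.4 with Vhcl. These were near or below the array medians of 4.97 to 5.05. They were 8 genes picked from the list, and others on it were brighter. Cd177 was at 7.15 to 9.0 with Lov and 7.56 to 10.01 with Vhcl, and Lcn2 at 13.34 to 13.49 and 13.3 to 13.76. Over the whole list the mean signal per tumor was 4.85 to 5.03 with Lov and 4.95 to 5.53 with Vhcl, and 6 of the 23 genes lay above the median signal of all probe sets. The part of granulocyte number in the S100a8 and S100a9 values was not tested.

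Across the 10 tumors S100a8 and S100a9 moved together (r = 0.793, permutation p = 0.00542; rho = 0.83, permutation p = 0.00466; adjusted p = 0.0146 for r and 0.0140 for rho over 3 relations tested by permutation). The relation held without the 2 tumors farthest from the median of S100a8 (r = 0.865) and after group means were subtracted (r = 0.697). S100a8 also followed the mean granulocyte marker signal (r = 0.742, permutation p = 0.00975; rho = 0.733, permutation p = 0.0207; adjusted p = 0.0146 and 0.0311), with r = 0.675 without those 2 tumors and r = 0.615 within groups. This relation rested in part on Ltf and Pglyrp1, since without these 2 genes, a choice made after seeing the data, r was 0.51 and, within groups, 0.299.

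S100a8 also followed markers of other stromal cells. These relations were chosen after the values had been seen and are descriptions. With the mean of 10 macrophage markers r was 0.809 (rho = 0.782), or 0.833 within groups, and with that of 11 fibroblast markers r was 0.862 (rho = 0.891), or 0.884 within groups. Without the 2 tumors farthest from the S100a8 median, Lov A50 and Lov AB10, the r values were 0.544 and 0.735. The mean macrophage marker signal was 6.72 to 7.42 with Lov and 7.11 to 7.34 with Vhcl, and that of fibroblast markers was 6.59 to 8.75 with Lov and 7.64 to 8.84 with Vhcl. Lov A50, which had the lowest S100a8 signal, also had the lowest fibroblast marker signal. The part of these cells in the S100a8 values was not tested.

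**Figure D2:**
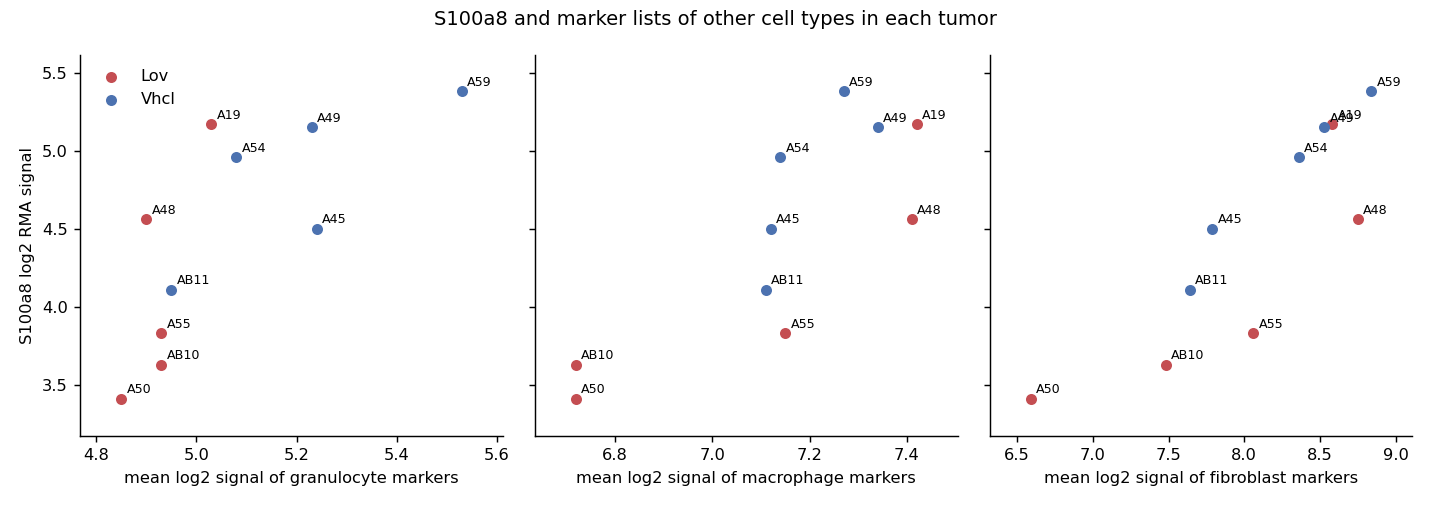
S100a8 log2 RMA signal (vertical axis) against the mean log2 signal of granulocyte, macrophage and fibroblast markers (horizontal axes) in each Lov-treated (red) and Vhcl-treated tumor (blue), labeled by tumor. Points rise to the right in all 3 panels (r = 0.742, 0.809 and 0.862), and Lov A50 lies lowest on the vertical axis.

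The 5 genes whose pattern over the 10 tumors was most like that of S100a8, among 11523 genes brighter than the median signal, were Adam8 (r = 0.971), Socs3 (r = 0.966), Lgals3 (r = 0.962), Ms4a6d (r = 0.942) and Oaf (r = 0.94). Adam8 encodes a leukocyte metalloprotease, Socs3 a feedback inhibitor of cytokine signaling, Lgals3 galectin-3 and Ms4a6d a membrane protein of myeloid cells. Lgals3 had signals of 10.96, 9.17, 7.53, 8.03 and 7.69 in Lov-treated tumors, against 10.17, 11.23, 10.28, 11.27 and 9.54 in Vhcl-treated tumors. As for S100a9, all Lov-treated tumors but A19 lay below every Vhcl-treated tumor. Lgals3 differed by −1.82 and Socs3 by −1.01 (limma adjusted p = 0.919 and 0.932), and the differences of Adam8, Ms4a6d and Oaf ran from −0.68 to −0.29.

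**Figure D3:**
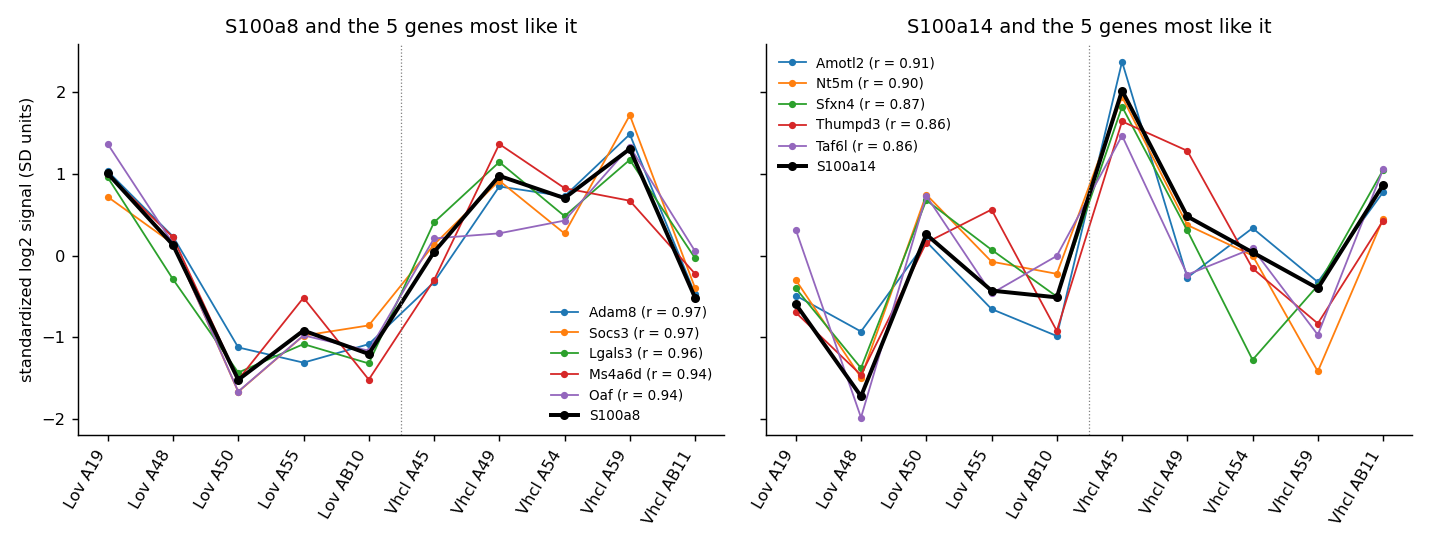
Standardized log2 signal (vertical axis, in SD units) of S100a8 (left) and S100a14 (right) in black, each with the 5 genes of most similar pattern, in the 5 Lov-treated and then the 5 Vhcl-treated tumors (horizontal axis). S100a8 is high in Lov A19 and in Vhcl A49, A54 and A59, and S100a14 is lowest in Lov A48 and highest in Vhcl A45.

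The epithelial members differed from each other. S100a14 (1449166_at), linked to epithelial cell motility, had signals of 4.76, 4.35, 5.07, 4.82 and 4.79 in Lov-treated tumors, against 5.71, 5.15, 4.99, 4.83 and 5.29 in Vhcl-treated tumors. All Lov-treated tumors but A50 lay below every Vhcl-treated tumor, A55 by only 0.01. The means were 4.76 ± 0.26 with Lov and 5.19 ± 0.34 with Vhcl (SD, n = 5 each). The difference was −0.44 (95% interval −0.81 to −0.06, limma unadjusted p = 0.0271, exact permutation p = 0.0476). The call was lost without Vhcl A45, Vhcl AB11 or Lov A48 (limma unadjusted p 0.0536 to 0.0731), and without both A19 and AB11 the difference was −0.41 (limma unadjusted p = 0.0792). With the RNA integrity measure in the fit, chosen after seeing the data, the difference was −0.58 (limma unadjusted p = 0.0059).

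S100a16, whose main probe set (1425560_a_at) was brighter than 97.6% of all probe sets, had signals of 9.97, 10.31, 10.52, 10.58 and 10.05 in Lov-treated tumors, against 10.57, 9.98, 10.17, 9.63 and 10.39 in Vhcl-treated tumors. The groups overlapped over most of their range. The means were 10.29 ± 0.27 with Lov and 10.15 ± 0.37 with Vhcl (SD, n = 5 each), a difference of 0.14 (95% interval −0.26 to 0.54; exact permutation p = 0.540), which was 0.01 without Vhcl A59 and 0.06 without Lov A55. The second probe set (1447676_x_at) also differed by 0.14 (95% interval −0.19 to 0.46).

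S100a14 and S100a16, neighbors on the chromosome, were not shown to move together over the 10 tumors (r = 0.347, permutation p = 0.328; rho = 0.333, permutation p = 0.350; r = 0.341 without the 2 tumors farthest from the S100a14 median, and 0.654 within groups). With the mean of 16 epithelial markers, described after the values had been seen and without a test, S100a14 had r = −0.06 (rho = 0.2; −0.57 within groups) and S100a16 r = −0.30 (rho = −0.18; −0.22 within groups). Of those 16 markers 2 were lower with Lov, the keratin Krt7 (−1.10) and the transcription factor Grhl2 (−0.26), and 1 was higher, Cd24a (0.45), with a median of −0.08. Their mean signal was 9.29 to 9.65 with Lov and 9.50 to 9.94 with Vhcl. The 5 genes most like S100a14 in pattern were Amotl2 (r = 0.906), Nt5m (r = 0.9), Sfxn4 (r = 0.867), Thumpd3 (r = 0.865) and Taf6l (r = 0.859). Of these, Amotl2 encodes a junction-associated angiomotin family protein and Sfxn4 and Nt5m mitochondrial proteins.

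To compare granulocyte with epithelial members, the mean log2 signal of each pair was taken per tumor, as a description with no test. The S100a8 and S100a9 mean was 3.89 ± 0.43 with Lov and 4.41 ± 0.36 with Vhcl, a difference of −0.52. The S100a14 and S100a16 mean was 7.52 ± 0.21 with Lov and 7.67 ± 0.34 with Vhcl, a difference of −0.15. Granulocyte minus epithelial members therefore differed by −0.37 between the groups. Per tumor this value was −2.83, −3.22, −4.30, −4.10 and −3.73 with Lov, against −4.01, −3.02, −3.01, −2.39 and −3.91 with Vhcl. The values overlapped widely: Lov A19, A48 and AB10 lay within the Vhcl range, and Vhcl A45 and AB11 lay among the lower Lov-treated tumors. With 1 tumor left out this difference was between −0.57 (Lov A19 left out) and −0.15 (Vhcl A59 left out), and it was −0.73 without both A19 and AB11. With the RNA integrity measure in the fit, chosen after seeing the data, it was 0.01. In that fit S100a8 differed by −0.46, S100a9 by −0.17, S100a14 by −0.58 and S100a16 by −0.08. The part of RNA integrity in these values was not tested.

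**Figure D4:**
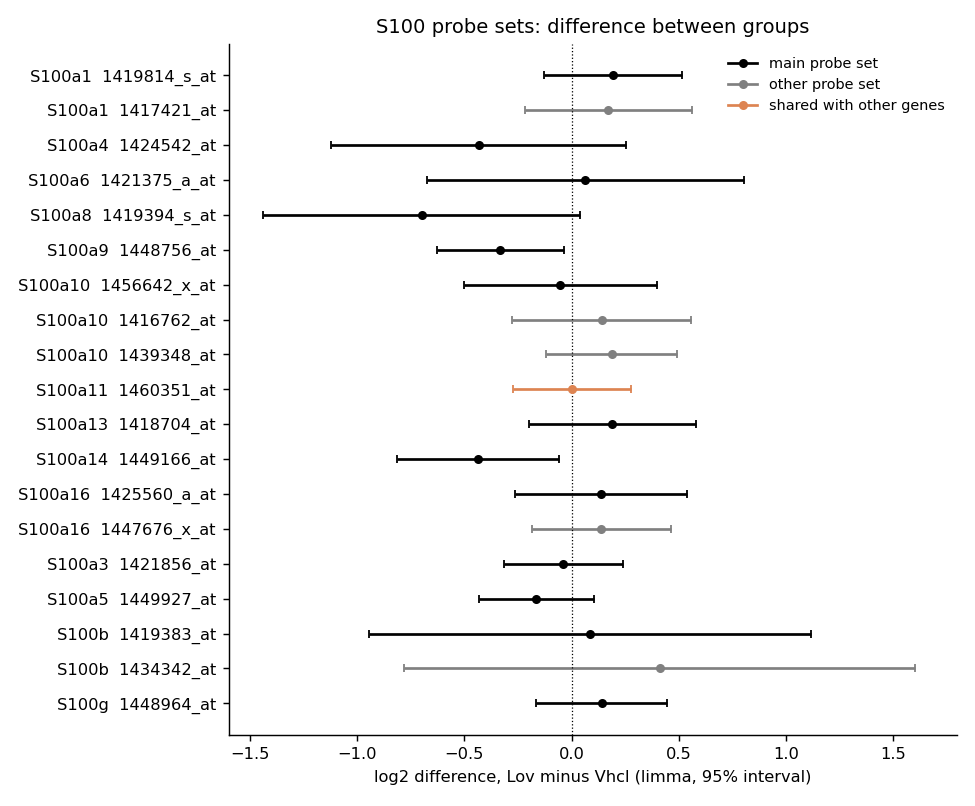
Log2 difference, Lov minus Vhcl (horizontal axis), of each S100 probe set (vertical axis), with its 95% interval from limma (5 tumors per group), in black for main probe sets, grey for other probe sets and orange for the shared S100a11 probe set. The intervals of S100a9 and S100a14 lie below 0, and all others include 0, among them S100a8 at −1.44 to 0.04.

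The broadly expressed members lay above the median signal, and none passed the threshold in either direction. S100a6 (1421375_a_at), calcyclin, had signals of 9.03, 8.65, 8.64, 9.62 and 8.72 in Lov-treated tumors, against 7.87, 8.21, 9.54, 9.60 and 9.12 in Vhcl-treated tumors. The Vhcl-treated tumors spanned the wider range and enclosed all but one of the Lov-treated tumors. Its means were 8.93 ± 0.42 with Lov and 8.87 ± 0.79 with Vhcl (SD, n = 5 each), a difference of 0.06 (95% interval −0.68 to 0.80; exact permutation p = 0.921).

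S100a10 has 3 probe sets of its own, and it encodes the annexin A2 partner p11, which takes ion channels and plasminogen to the cell surface. The main one (1456642_x_at) had signals of 9.21, 9.24, 9.09, 9.49 and 9.20 in Lov-treated tumors, against 9.35, 8.48, 9.56, 9.80 and 9.30 in Vhcl-treated tumors. All Lov-treated tumors lay within the Vhcl range, and the difference was −0.05 (95% interval −0.50 to 0.40; exact permutation p = 0.857). The other probe sets differed by 0.14 (1416762_at, 95% interval −0.28 to 0.56) and 0.19 (1439348_at, 95% interval −0.12 to 0.49), so the sign depended on the probe set.

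S100a6 and the main probe set of S100a10 were highest in the same 3 tumors, those with the highest mean skeletal muscle marker signal. Next in muscle marker signal was Vhcl AB11 (5.71), with S100a6 at 9.12 and S100a10 at 9.30. In Lov A55, Vhcl A54 and Vhcl A59 S100a6 was at 9.62, 9.54 and 9.60, against 7.87 to 9.12 in the other 7 tumors. In these 3 tumors S100a10 was at 9.49, 9.56 and 9.80, against 8.48 to 9.35 in the other 7. The other S100a10 probe sets did not share this order: for 1416762_at Vhcl A54 (9.20) lay below Lov A48 (9.27), and for 1439348_at Vhcl A59 (4.96) lay below Lov A50 (5.30). No correlation of S100a6 or S100a10 with the muscle markers was computed, and the part of muscle in these values was not tested. S100a6 and S100a10 had r = 0.669 (rho = 0.673) over all 10 tumors, and S100a10 had r = 0.596 (rho = 0.709) with Anxa2, both chosen after the values were seen.

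S100a13 (1418704_at), which takes part in the release of FGF1 and interleukin-1 alpha, had signals of 8.54 to 9.18 (median 8.96) in Lov-treated tumors, against 8.29 to 9.02 (median 8.99) in Vhcl-treated tumors. Its difference was 0.19 (95% interval −0.20 to 0.58; exact permutation p = 0.318), which was 0.08 without Vhcl A45 and 0.10 without Vhcl A59. The shared S100a11 probe set (1460351_at) had signals of 11.22 to 11.89 (mean 11.67 ± 0.26) with Lov and 11.55 to 11.80 (mean 11.66 ± 0.12) with Vhcl, a difference of 0.00 (95% interval −0.28 to 0.28). Here only Lov A19 lay clearly below the other tumors.

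S100a4 (1424542_at), the mesenchymal member, was dim, with signals of 4.97, 5.18, 3.97, 4.75 and 4.83 in Lov-treated tumors, against 4.55, 4.83, 6.31, 5.27 and 4.90 in Vhcl-treated tumors. Vhcl A54 stood highest and Lov A50 lowest. The difference was −0.43 (95% interval −1.12 to 0.26; exact permutation p = 0.325), −0.15 without Vhcl A54 and −0.24 without Lov A50. With the mean of the 11 fibroblast markers S100a4 had r = 0.642 (rho = 0.705), or 0.609 within groups, as a description chosen after the values were seen. Of those 11 markers 0 were lower or higher with Lov at the threshold, with a median difference of −0.44.

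S100a1, the muscle and neural member, was brighter than 97.4% of all probe sets in these tumors. Its main probe set (1419814_s_at) had signals of 10.03, 10.24, 10.15, 10.32 and 10.47 in Lov-treated tumors, against 10.09, 10.42, 9.98, 9.58 and 10.17 in Vhcl-treated tumors. The difference was 0.19 (95% interval −0.13 to 0.52; exact permutation p = 0.262), and 0.17 (95% interval −0.22 to 0.56) for the second probe set (1417421_at). For the main probe set it was 0.08 without Vhcl A59. By its main probe set S100a1 was not raised in all tumors with the highest muscle marker signal: Vhcl A59 and A54 had its lowest signals, while Lov A55 was among the higher tumors. For the second probe set Vhcl A59 (8.2) was lowest, and Lov A19 (8.89) lay just below Vhcl A54 (8.9). S100a1 and S100a13, whose windows overlap head to head, had r = 0.646 but rho = 0.37, and r = 0.486 without Lov AB10 and Vhcl A59, a pair chosen after the values were seen.

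Among the 36 pairs of the 9 genes, r was highest for S100a8 with S100a9 (0.793) and lowest for S100a9 with S100a16 (−0.80, rho = −0.733). For S100a9 and S100a16 r was −0.87 within groups and −0.76 without Vhcl A54 and A59, while S100a8 with S100a16 had r = −0.69. Since the extreme pairs were picked from the 36, no test is given for the lowest. Spread also differed between genes. The within-group SD of S100a8 (0.630), S100a6 (0.630) and S100a4 (0.584) exceeded that of 96.8%, 96.8% and 96.2% of all genes, against 51.4% for S100a9 (0.221) and 61.4% for S100a1 (0.248).

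**Figure D5:**
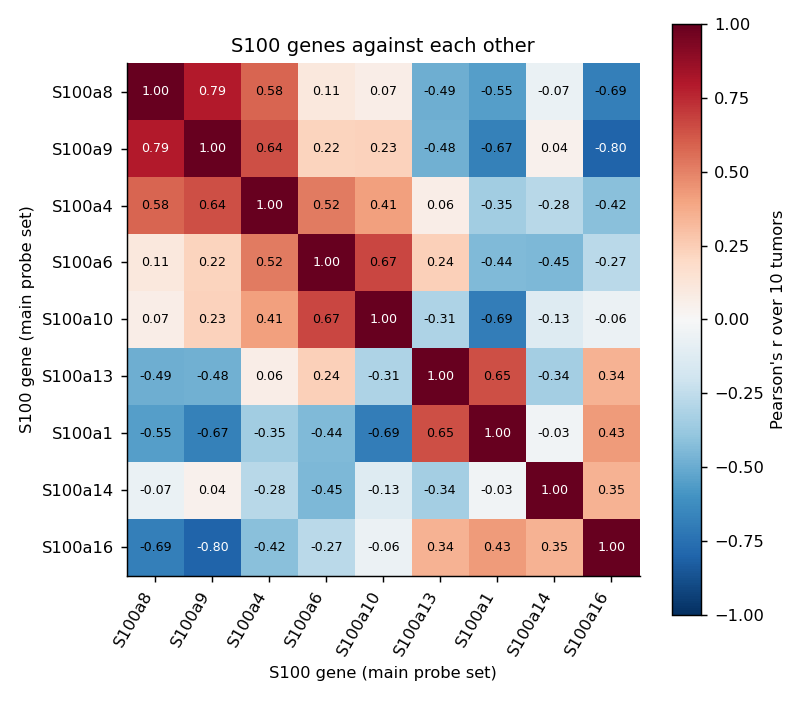
Pearson's r over the 10 tumors between the main probe sets of the 9 S100 genes (both axes), from −1 (blue) to 1 (red). S100a8 and S100a9 share the highest value (0.793), and S100a9 and S100a16 the lowest (−0.80).

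Other genes of the pathway gave few calls. Of 6 further S100 genes 4 were measured and 0 were lower or higher: S100a3 differed by −0.04, S100a5 by −0.16, S100g by 0.14 and S100b by 0.09. S100b, the glial and adipocyte member, had signals of 6.56 to 7.24 with Lov and 5.32 to 8.10 with Vhcl, so that the Vhcl-treated tumors lay on both sides of all Lov-treated ones. Of 16 binding partners and receptors 15 were measured, with 0 lower, 1 higher and a median difference of −0.01. The one that was higher was Anxa6, a membrane-binding annexin, which had signals of 9.84, 10.73, 10.86, 10.75 and 10.56 in Lov-treated tumors, against 9.74, 10.35, 10.33, 9.91 and 10.23 in Vhcl-treated tumors. All Lov-treated tumors but A19 lay above every Vhcl-treated tumor, with a difference of 0.44 (limma adjusted p = 0.938; exact permutation p = 0.0873). The calprotectin receptors Tlr4 and Ager, which encodes RAGE, had signals of 6.06 to 6.39 and 5.29 to 5.70 with Lov, against 5.94 to 6.60 and 5.42 to 5.82 with Vhcl, and did not pass the threshold.

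The lists of other cell types were checked in the same way. Of 10 macrophage markers 1 was lower (Itgam, −0.34) and 1 higher (Csf1r, 0.43). Of 12 basal and squamous markers 0 were lower or higher. Of 6 adipocyte markers 1 was lower (Fabp4, −0.86), and of 11 skeletal muscle markers 0 were lower or higher. Of 6 salivary gland markers 2 were lower, Prol1 (−2.55) and Dcpp1 (−3.18), both with a limma adjusted p of 0.919. For these counts and those of the lists above, the share over all genes was 2.75% lower and 3.5% higher.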

How the data were processed

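The authors deposited 1 table of log2 signals from Affymetrix MG430 2.0 arrays, made with RMA in the affy package (versions not given in the sources used here), with values to 2 decimals. Tumors were grouped by their labels. Of 45101 probe sets 64 controls were left out. Platform annotation gave 34945 probe sets 1 gene symbol, 932 several and 9160 none. Group differences were fitted with limma 3.58.1 (lmFit, eBayes; R 4.3.3) on all 45037, 2-sided, with Benjamini-Hochberg adjustment, and each gene's difference in means was tested by an exact permutation test (252 assignments, 2-sided). Correlations used 100000 permutations. The fit was tested on simulated data. Members and lists were chosen with earlier results of these data known. Named genes were all members, list genes under an unadjusted p of 0.05 (at most the 4 lowest p), and the 5 genes most like S100a8 and S100a14; others named with values were chosen after their values were seen. The number of arrays limits precision. A planned comparison of protein sequences was not run. Alternatives covered the variance prior, Student's t-test, array weights, normalization, ID prefix, probe set choice, low-signal filter and tumors left out.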

Additional observations from a re-analysis of the deposited data

Results flagged for a closer look

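In Lov A55 the mean log2 signal of 11 skeletal muscle markers was 7.74, against 4.55 to 5.01 in the other Lov-treated tumors, a gap of 0.854 of the group's range. In Lov A19 that of 6 salivary gland markers was 7.01, against 5.10 to 5.46 in the other Lov-treated tumors, a gap of 0.808 of the range. Both gaps exceeded Dixon's 95% critical value of 0.71 for 5 samples. These were 2 of 60 groups of values checked, and chance alone flags about 1 in 20.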

How the results depend on the processing

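The count of S100 genes lower with Lov, 2 as reported, was 1 with Student's t-test, 0 among probe sets above the median signal (a filter that removes S100a4, S100a8, S100a9 and S100a14) and 1 with a covariate for RNA integrity (beta-actin, 3' probe set minus 5'), a choice made after seeing the data. It was 1 to 3 when each tumor was left out in turn (1 without Vhcl A45, A54 or A59 or Lov A50 or A55, and 3 without Lov A19), and 3 when the prefix of the tumor IDs was a covariate or Lov A19, Vhcl A59 and Vhcl AB11 were left out together. The count of genes higher stayed at 0 in every alternative run. Probe sets past a false discovery rate of 0.05 numbered 0 to 1 without 1 tumor (1 without Vhcl A54) and 4 without Lov A19 and Vhcl AB11 together. Of 185 recomputed member differences, 160 kept their direction and side of the threshold, 10 lost the call (S100a9 and S100a14), 6 gained it (S100a8) and 9 changed sign, none of them called. The sign changes were S100a10 at 0.092 with the mean of its probe sets 0.106 with the beta-actin covariate and 0.125 without Lov A19, Vhcl A59 and Vhcl AB11 (a choice made after seeing the data), S100a16 at −0.077 with that covariate, and, without 1 tumor, S100a6 (−0.185 to 0.247) and S100a10 (−0.256 to 0.074). The granulocyte minus epithelial difference (−0.37) turned to 0.009 with the beta-actin covariate and kept its sign in the other alternatives run. The causes were not tested. No paired analysis was possible because the replicate numbers follow sample order only. Signals of dim genes have no detection calls here, which limits what can be said of S100a4, S100a8, S100a9 and S100a14.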
